A study of Mus musculus with 28 samples.

Results

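The liver response to tenofovir disoproxil was read from the arrays titled with that drug and a number from 1 to 5, each with its dye-exchanged partner. These are 10 of the 28 arrays of the series and hold 5 animals. Tenofovir disoproxil is an oral prodrug of tenofovir, an acyclic nucleoside phosphonate used against HIV and hepatitis B virus. The animals were female C57BL/6 mice, 8 to 10 weeks old, given 25 mg/kg of the drug by intraperitoneal injection on 3 days and killed on day 4, 24 h after the last dose. Total liver RNA of each animal was hybridised in both dye orientations against RNA pooled from mice injected with 200 µl of saline. The sample labels give 10 animals in that pool and the treatment protocol gives 5. The series sets this drug beside adefovir dipivoxil, a related prodrug given to 5 mice at the same 25 mg/kg, and beside a positive control of 4 mice given phenobarbital at 60 mg/kg and, on day 2 only, β-naphthoflavone at 80 mg/kg. All groups share the strain, sex, age range and saline pool.

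The array is a focused one, with 120 probes for 118 genes of drug, sterol, bile acid and nuclear receptor biology, so the response outside these pathways was not measured. The stated subject of the series is how drugs of this class bear on cytochrome P450 genes, whose heme enzymes oxidise drugs, steroids, retinoids and fatty acids. Drugs that induce P450 genes in liver usually do so through ligand-activated receptors: the aryl hydrocarbon receptor acts on the Cyp1a genes, and the receptors CAR and PXR act on the Cyp2b and Cyp3a genes. Liver is also the main site of cholesterol synthesis. There acetyl-CoA is turned into mevalonate, then into isoprenoid units, squalene and, after ring closure by lanosterol synthase, cholesterol, and the enzymes' genes share the transcription factor SREBP2, which is released when cell sterol falls. Retinoic acid is broken down by the P450 enzyme Cyp26a1, whose gene is itself switched on by retinoic acid.

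Values are log2 ratios of treated over saline pool, averaged over the dye pair of an animal, so that a value of 0 is the level of the pool. In the treated channel, 64 to 88 probes stood above background with the treated RNA in Cy3 and 30 to 47 with it in Cy5. Of the 120 probes, 71 were above background in at least 1 channel on most of the 10 arrays and 32 on none. Of the hepatocyte markers, 9 are on the array and 8 of these were above background, among them Apoa1, Apob, Cyp2e1 and Slc10a1. The listed markers of cholangiocytes, Kupffer cells, endothelial cells and stellate cells had 0 members on the array, so a change in the mix of cells was not tested, and in such bulk RNA fewer cells of a type and less RNA per cell cannot be told apart. Over all probes, the 5 animals' profiles correlated with each other at r of 0.379 to 0.744, a description across genes that share the saline pool. The 2 arrays of 1 animal agreed less well, at r of 0.47, 0.25, 0.20, 0.03 and -0.11 in animals 1 to 5. With the mean dye effect of each probe removed, these were 0.72, 0.54, 0.57, 0.50 and 0.34.

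In the livers of mice given tenofovir disoproxil, RNA was called lower than in the saline pool for 2 of the 120 probes. These were Cyp26a1, the retinoic acid hydroxylase, and Acss2, the cytosolic enzyme that makes acetyl-CoA from acetate. Their means were also below the pool with adefovir and in the positive control. Cyp26a1 was called lower in both of those groups too, whereas Acss2 was called in the positive control but not with adefovir (adjusted p = 0.391, limma). Whether the shared pool was high for these genes was not tested. No gene was called higher. These calls are 1.67% and 0% of the probes (limma, Benjamini-Hochberg adjusted p under 0.05 over 120 probes), and at an unadjusted p under 0.05 there were 12 lower (10%) and 8 higher (6.67%). Between these 2 genes and the rest lay a group of cholesterol synthesis genes that were below the pool in every animal without passing the test. The drug metabolism genes Cyp1a2, Cyp2b10 and Cyp3a41a did not pass it in either direction. Cyp3a41a was not called in the positive control either (mean 0.19, adjusted p = 0.177, limma). With the array centred on luciferase spots in place of loess, the split was 3 lower and 5 higher, and with calibration spots 3 lower and 1 higher.

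**Figure D1:**
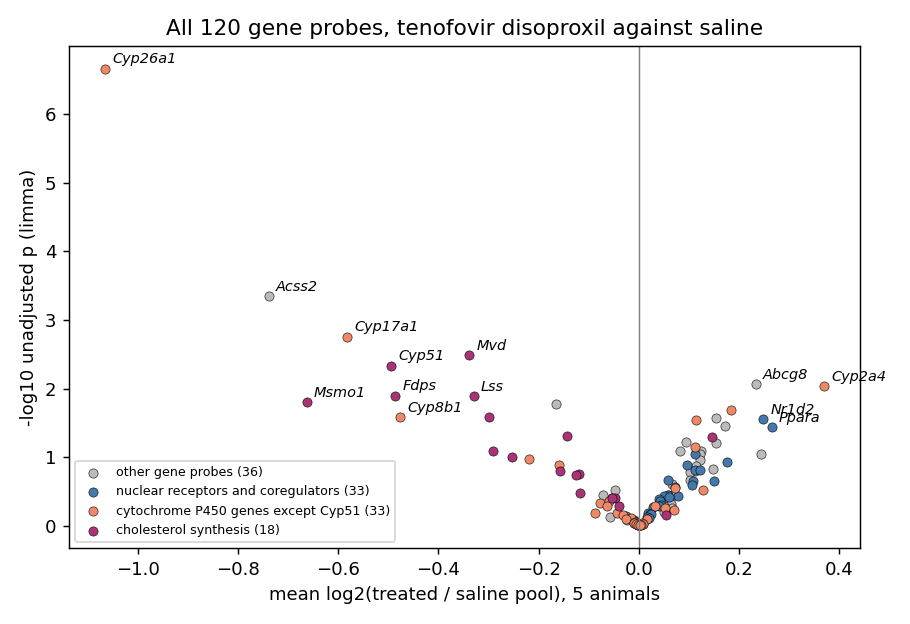
Mean log2 ratio of treated over saline pool in 5 animals (horizontal) against -log10 of the unadjusted limma p (vertical) for 120 gene probes, coloured by gene list, with the number of probes in brackets. Cyp26a1 and Acss2 lie apart at the upper left, and 16 of the 18 cholesterol synthesis probes lie left of 0.

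Cyp26a1 was lower in each animal. Its log2 ratio was -0.75 in animal 1, -1.17 in animal 2, -1.47 in animal 3, -0.93 in animal 4 and -1.01 in animal 5. The animals varied, but none came near the pool. The mean was -1.07 ± 0.271 (SD, n = 5), with a 95% interval of -1.31 to -0.82 and an adjusted p of 2.63e-05 (limma). The saline channel stood above background on 9 of the 10 arrays and the treated channel on 2, both with treated RNA in Cy3. The size of the fall is therefore poorly measured: with plain subtraction of the background the value became -3.35, and it was -1.42 from the arrays with treated RNA in Cy3 and -0.71 from those in Cy5. The median signal over background was 10.8 intensity units in the treated channel and 230 in the saline channel.

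Acss2 was well above background in both channels on all 10 arrays. Its log2 ratio was -0.72 in animal 1, -1.10 in animal 2, -0.68 in animal 3, -0.77 in animal 4 and -0.42 in animal 5. The arrays were on the same side too: all 10 were negative, from -1.64 to -0.02. The mean was -0.74 ± 0.245 (SD, n = 5), a level 1.67-fold lower than in the pool, with an adjusted p of 0.0269 (limma). The call was lost without animal 1 (adjusted p = 0.0981), animal 2 (0.126), animal 3 (0.0588) or animal 4 (0.114), and from the arrays with treated RNA in Cy5 alone (mean -0.39, adjusted p = 0.0828, against -1.09 in Cy3). Acss2 and Cyp26a1 stayed below the pool in each of these settings.

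The promoters of the 2 called genes and of some of the cholesterol genes are shown so that the elements that bind retinoic acid receptors, SREBP and its partner factors can be looked for in them. The table of RefSeq promoters (build GRCm38.p6) held 8 of the 10 genes wanted, namely the called genes and the named cholesterol genes that were negative in all animals and, on most arrays, above background in at least 1 channel, and lacks Fdps and Fdft1. Each sequence is the 250 bases before the gene start, and the search also took in the 50 bases after it, on both strands. Capitals mark a retinoic acid response element in Cyp26a1, read as the half-site GTTCA in a direct repeat with 6 letters between, a CCAAT box (letters CCAAT, or ATTGG on the other strand) in the other genes, and a sterol regulatory element (TCACNCCAC) in Hmgcs1.
Cyp26a1, chr19:37697558-37697807, plus strand: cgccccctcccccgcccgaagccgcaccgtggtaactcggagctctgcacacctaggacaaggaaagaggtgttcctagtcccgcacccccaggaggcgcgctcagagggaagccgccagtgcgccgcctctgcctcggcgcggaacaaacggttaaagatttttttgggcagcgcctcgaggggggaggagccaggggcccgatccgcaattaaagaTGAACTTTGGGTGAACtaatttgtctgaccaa
Acss2, chr2:155517793-155518042, plus strand: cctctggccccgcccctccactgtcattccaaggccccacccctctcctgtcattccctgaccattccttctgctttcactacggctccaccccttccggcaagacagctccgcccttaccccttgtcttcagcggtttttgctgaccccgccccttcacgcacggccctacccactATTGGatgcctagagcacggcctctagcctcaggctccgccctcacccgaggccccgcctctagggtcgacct
Mvd, chr8:122443423-122443672, minus strand: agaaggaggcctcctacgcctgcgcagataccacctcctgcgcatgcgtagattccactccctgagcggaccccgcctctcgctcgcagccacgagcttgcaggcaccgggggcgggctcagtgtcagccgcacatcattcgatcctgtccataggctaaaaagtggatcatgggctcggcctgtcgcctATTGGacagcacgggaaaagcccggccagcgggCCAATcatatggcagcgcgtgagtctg
Cyp51, chr5:4104698-4104947, minus strand: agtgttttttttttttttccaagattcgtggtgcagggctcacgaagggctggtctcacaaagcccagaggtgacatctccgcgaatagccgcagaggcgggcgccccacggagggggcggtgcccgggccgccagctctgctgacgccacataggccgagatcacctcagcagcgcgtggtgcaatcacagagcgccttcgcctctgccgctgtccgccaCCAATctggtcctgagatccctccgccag
Hmgcs1, chr13:119690101-119690350, plus strand: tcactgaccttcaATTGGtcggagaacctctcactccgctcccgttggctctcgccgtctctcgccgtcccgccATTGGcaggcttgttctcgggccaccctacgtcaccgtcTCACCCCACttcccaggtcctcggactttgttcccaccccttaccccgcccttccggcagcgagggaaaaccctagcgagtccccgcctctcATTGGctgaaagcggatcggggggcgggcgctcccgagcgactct
The repeat in Cyp26a1 begins 32 bases before the start and lies on the minus strand. It is found in 0.0761% of the 32851 promoters in the table. A CCAAT box was present in the windows of all 7 of Acss2, Mvd, Cyp51, Lss, Msmo1, Hmgcs1 and Nsdhl, and in 37.4% of all promoters. The GC box (GGGCGG) was in these 7 and in Cyp26a1, against 35.7% of all promoters. The sterol regulatory element was matched in Hmgcs1 alone of the 8, at 137 bases before the start, against 1.24% of all promoters. Only the letters TCACNCCAC were searched, so a site with other letters would be missed, and no match does not show that a gene lacks one. These matches describe the letters of the window and show no binding.

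The other 5 measured members of the retinoid list, the receptors Rara, Rarg, Rxra, Rxrb and Rxrg, had mean ratios between 0.00 and 0.06, and none was called. Of these, 3 were above background on no array. Cyp26a1 was thus the called member of 6, and the list's median was 0.01 against 0.02 over all 120 probes.

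Of the 18 measured genes of cholesterol synthesis, 0 passed the test, but 16 had a mean below the pool and 11 were below it in all 5 animals. Over all 120 probes, 48 had a mean below the pool and 16 (13.3%) were negative in all animals, so these 18 genes hold 11 of those 16. The median over the 18 was -0.15, beside 0.02 over all probes, and 7 had an unadjusted p under 0.05 downward. By animal, the list's median was -0.22, -0.28, -0.24, -0.13 and -0.08 in animals 1 to 5, and 16, 16, 15, 14 and 15 of the 18 genes were negative. Signal exceeded background on most arrays for 15 of the 18 genes and on no array for 1.

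**Figure D2:**
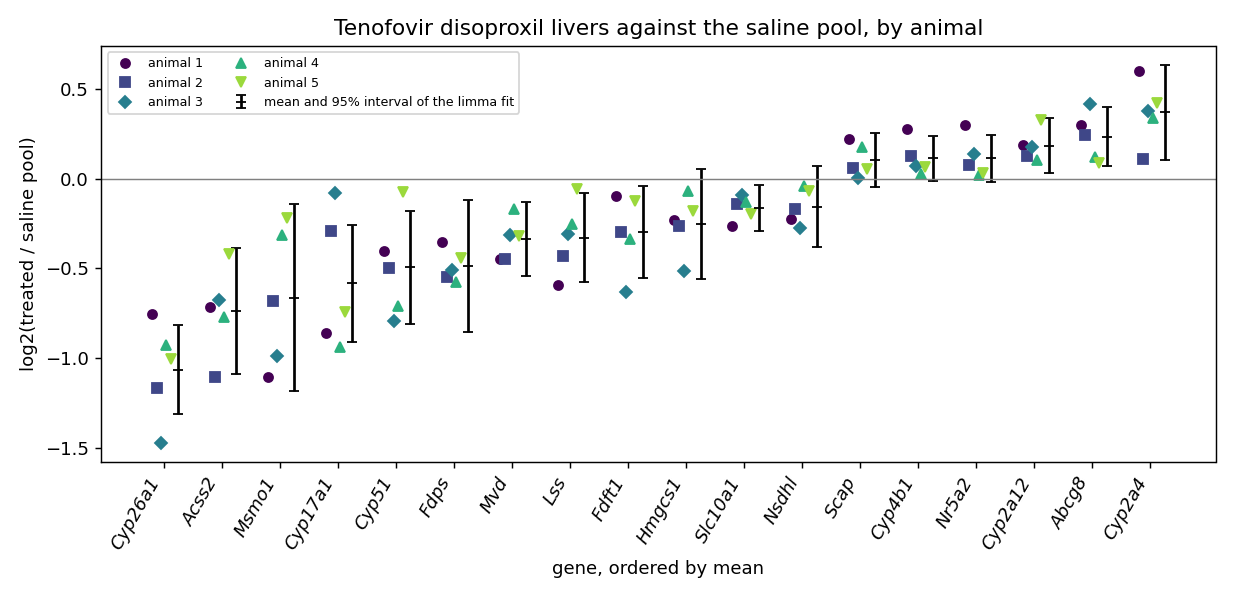
Log2 ratio of treated over saline pool in each of the 5 animals (symbols) for the called genes and the further genes with 1 sign in all animals, ordered by mean, with the limma mean and its 95% interval (bars). Every symbol of the 12 genes at the left lies below 0, and Cyp26a1 and Acss2 are the genes called.

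In the mevalonate part, which makes the isoprenoid building blocks, 7 of 8 genes had a negative mean and the median was -0.19. Fdps, farnesyl diphosphate synthase, was the most even of the named genes in this part: -0.36, -0.55, -0.51, -0.58 and -0.44 in animals 1 to 5. Its SD over the animals was 0.0891, the mean -0.49, and all 10 arrays were negative. The treated channel of Fdps was above background on 6 of 10 arrays, and on only 1 with treated RNA in Cy5. The mean was -0.34 in Cy3 and -0.63 in Cy5. The adjusted p was 0.171 in the fit over all 14 animals, where Fdps varied more with adefovir (SD 0.586) and in the positive control (SD 0.452), and 0.000901 with the tenofovir animals fitted alone (both limma). Mvd, mevalonate diphosphate decarboxylase, lay at -0.45, -0.45, -0.31, -0.17 and -0.32, with a mean of -0.34 ± 0.116 (SD, n = 5) and an adjusted p of 0.0981 (limma). Its treated channel was above background on 3 of 10 arrays and its saline channel on 6.

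Hmgcs1, the cytosolic synthase that makes HMG-CoA, was below the pool in all animals, from -0.52 to -0.07, with a mean of -0.25 (adjusted p = 0.381). Mvk, mevalonate kinase, had a mean of -0.12, and Pmvk, the kinase of the next step, had one of -0.04 with no channel above background. Idi1, the isomerase of the isoprenoid units, went apart from its neighbours. Its values were -0.32 and -0.66 in animals 1 and 2 and 0.32, 0.47 and 0.45 in animals 3, 4 and 5, so the animals split in sign and the mean of 0.05 stands for none of them.

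In the part from squalene synthase to cholesterol, 9 of 10 genes had a negative mean, 7 were negative in all animals and the median was -0.15. Msmo1, a methylsterol oxidase, had the lowest mean of the cholesterol genes, at -0.66, with -1.11, -0.68, -0.99, -0.32 and -0.22 in animals 1 to 5. Its animals spread widely (SD 0.395), and the adjusted p was 0.18 (limma). Cyp51, the P450 enzyme that takes a methyl group off lanosterol, lay at -0.40, -0.50, -0.79, -0.71 and -0.07, with a mean of -0.50 and an adjusted p of 0.112 (limma). Lss, lanosterol synthase, was at -0.59, -0.43, -0.31, -0.25 and -0.06, with a mean of -0.33 (adjusted p = 0.171). For Msmo1, Cyp51 and Lss animal 5 was nearest to the pool.

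Fdft1, squalene synthase, had a mean of -0.30, with its animals between -0.63 and -0.10. Nsdhl, a sterol dehydrogenase, had one of -0.16, with its animals between -0.28 and -0.04. For Fdft1, Nsdhl, Lss and Hmgcs1, the treated channel was above background on 5 arrays with treated RNA in Cy3 and on 0 in Cy5. Sqle and Dhcr7 were also negative in all 5 animals, with means of -0.12 and -0.14, but each was above background on 1 array. Ebp, the sterol isomerase, was the exception, with a mean of 0.15 and 4 of 5 animals above the pool, but its sign turned with the dye: 0.49 with treated RNA in Cy3 and -0.20 in Cy5. The same held for Sc5d, a desaturase late in the pathway with a mean of -0.12, at 0.22 in Cy3 and -0.47 in Cy5.

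How many of the 120 probes are called depends on whose spread is used. With the 5 tenofovir animals fitted alone, 8 genes were called lower, namely Cyp26a1, Acss2, Fdps, Mvd, Cyp51, Msmo1, Lss and Cyp17a1, and 1 higher, Cyp2a4 (limma, adjusted p of 0.000901 to 0.0442). With the 10 antiviral animals, 5 of the 120 probes were called lower, namely Cyp26a1, Acss2, Cyp17a1, Mvd and Lss, and 2 higher, Cyp2a4 and Abcg8. Fdps, Cyp51 and Msmo1 were not called there (adjusted p = 0.117, 0.0742 and 0.172, limma). Other centrings, which also leave out the loess step, moved the medians of the list and of all probes. Centred on the array median, the list's median was -0.27 and that of all probes 0.09. Calibration spots gave 0.01 and 0.37, luciferase spots -0.05 and 0.31, and Actb, Gapdh and Ppia -0.17 and 0.18. These 4 centrings differ from each other only by a constant in each animal, so they give a single result on order: 16 of the 18 genes lay below the median of all probes, as they did with loess.

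**Figure D3:**
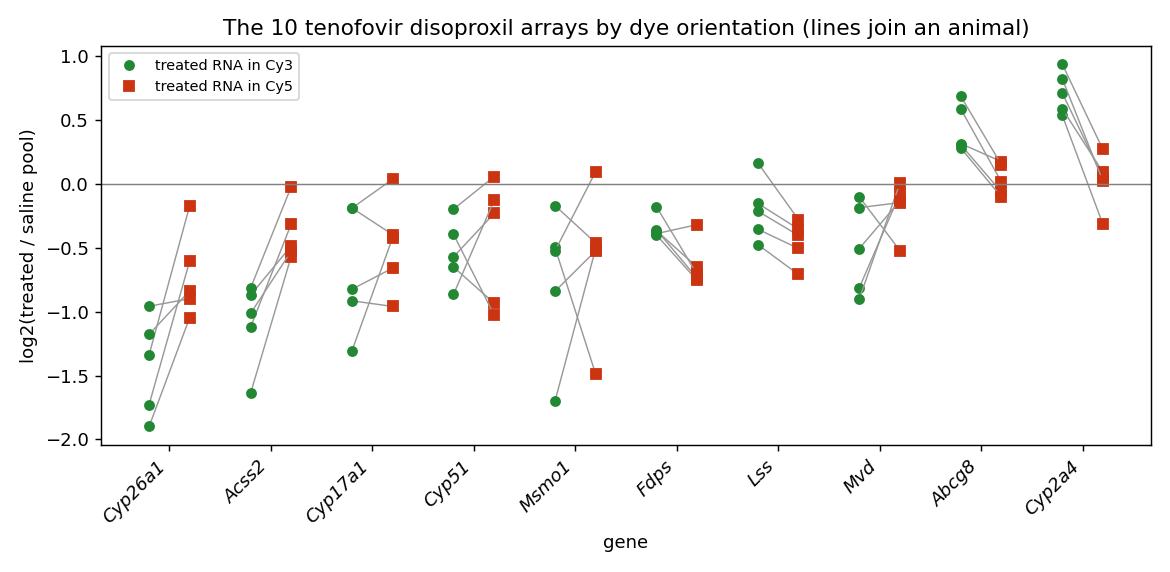
Log2 ratio of treated over saline pool on each of the 10 arrays for 10 genes, with the treated RNA in Cy3 (circles) or in Cy5 (squares) and a line joining the arrays of an animal. Acss2, Cyp26a1 and Fdps are negative on all 10 arrays, whereas Cyp2a4 is between 0.54 and 0.94 in Cy3 and between -0.32 and 0.27 in Cy5.

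None of the sterol sensors and carriers was called. Of the sterol sensing list, Srebf1 and Srebf2, which encode the SREBP factors, had means of 0.07 and 0.06 with no channel above background on any array, and Scap, their escort protein, had a mean of 0.10 with all 5 animals above the pool. Its adjusted p was 0.462, and its sign turned with the dye (-0.12 in Cy3, 0.32 in Cy5). Nr1h2, an oxysterol receptor, was at 0.00 and above background on 1 array. Among the 8 genes of lipoprotein and cholesterol handling, 7 had a positive mean and 0 were called. Abcg8, a subunit of the transporter that moves sterols into bile, was at 0.30, 0.24, 0.42, 0.12 and 0.09 in animals 1 to 5, with a mean of 0.23 and an adjusted p of 0.159 (limma). The mean was 0.43 from the arrays with treated RNA in Cy3 and 0.03 from those in Cy5. Its partner Abcg5 had a mean of 0.11 and 4 of 5 animals above the pool. Apoa1, the main protein of HDL, had a mean of 0.24, with its animals between -0.09 and 0.47, and stood at 0.51 in Cy3 and -0.03 in Cy5. Scarb1, the HDL receptor, had one of 0.10, and Apob, the protein of LDL, one of 0.07.

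Bile acid synthesis, which uses up cholesterol, had 7 measured genes, 0 called and a median of -0.05. Cyp7a1, its rate-limiting enzyme, had a mean of 0.01, but was above background on only 2 arrays in each channel. Cyp27a1, of the alternative route, was at -0.06, with animal 1 at -0.51 and the others between -0.06 and 0.13. Cyp8b1, the sterol hydroxylase that sets the share of cholic acid, split the animals: -0.67, -0.44 and -1.31 in animals 1, 2 and 3, and 0.00 and 0.03 in animals 4 and 5. Its mean of -0.48 had an adjusted p of 0.203 (limma). Slc10a1, the hepatocyte's bile acid uptake carrier, was below the pool in each animal, from -0.26 to -0.09, with a mean of -0.16 (adjusted p = 0.18). The export pump Abcb11 had a mean of 0.06 and animals on both sides. Over the 11 bile acid and drug transporters the median was 0.07 and 0 were called.

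Cyp17a1, the steroid hydroxylase and lyase of sex steroid synthesis, had the smallest p of the genes not called. Its values were -0.86, -0.29, -0.08, -0.94 and -0.74 in animals 1 to 5, so animals 2 and 3 stood near the pool. The mean was -0.58 ± 0.377 (SD, n = 5), with an adjusted p of 0.0703 (limma), or 0.0258 with dim probes left out. The 6 genes of the steroidogenesis list had a median of -0.01, and 4 of them were above background on no array. Another of the 6, Cyp21a1, was at 0.00.

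The P450 genes that respond to inducers showed no call. Of the 34 P450 probes, 1 was called, Cyp26a1, and the median was -0.01. Cyp1a2, a target of the aryl hydrocarbon receptor, was at 0.17, -0.29, -0.07, -0.53 and -0.37 in animals 1 to 5, with a mean of -0.22 (95% interval -0.49 to 0.05). Neither channel of the Cyp1a1 probe exceeded background on any array. Cyp2b10, the marker gene of CAR in mouse, was at -0.07, -0.19, -0.06, 0.15 and 0.13, with a mean of -0.01 and a 95% interval of -0.19 to 0.17. Over the 10 measured targets of CAR and PXR, the median was 0.02.

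Cyp2a4, a steroid hydroxylase, was the highest mean of all 120 probes. Its values were 0.60, 0.11, 0.38, 0.34 and 0.42 in animals 1 to 5, with a mean of 0.37 ± 0.177 (SD, n = 5) and an adjusted p of 0.159 (limma). The mean was 0.72 from the arrays with treated RNA in Cy3 and 0.02 from those in Cy5. Its relative Cyp2a12 was also above the pool in all animals, from 0.10 to 0.33, with a mean of 0.18, but with the opposite dye difference, -0.02 in Cy3 and 0.39 in Cy5. Cyp3a13, Cyp3a25 and Cyp3a41a, of the main drug-oxidising family, had means of 0.07, 0.05 and -0.16. Cyp2e1, which oxidises ethanol and small solvents, was at 0.01 and Cyp2f2 at -0.01. Cyp2d22 had a mean of 0.13, Cyp2b13 and Cyp2j6 had one of -0.03 each, and the fatty acid hydroxylase Cyp4f14 had one of -0.08. Cyp4b1 was above the pool in every animal, with a mean of 0.11 (adjusted p = 0.351, limma), but its sign turned with the dye, at 0.35 in Cy3 and -0.13 in Cy5.

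The transporters Abcc2 and Abcc3, which carry conjugates out of the cell, had means of 0.15 and 0.07. Both turned in sign with the dye: Abcc2 was at 0.37 in Cy3 and -0.08 in Cy5, and Abcc3 at -0.13 and 0.26. Alas1, the rate-limiting enzyme of heme synthesis, was at 0.61 in animal 2 and between -0.34 and -0.04 in the others, with a mean of -0.06. Ppargc1a, a coactivator of mitochondrial genes, had a mean of 0.08.

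Nuclear receptors and coregulators were the largest list, with 33 genes. Of these 0 were called and 28 had a mean above the pool, while the median was only 0.04, and 15 were above background on no array. Ppara, the fatty acid receptor, was at -0.21 in animal 1 and 0.17, 0.31, 0.72 and 0.35 in animals 2 to 5, with a mean of 0.27 (adjusted p = 0.232). Nr1d2, a repressor of the circadian clock, was at -0.04 in animal 3, at 0.66 in animal 1 and between 0.18 and 0.25 in the others, with a mean of 0.25. Hnf4a, a factor that keeps hepatocyte identity, had a mean of 0.18, with animal 1 at -0.35 and the others above the pool. Nr5a2, a regulator of bile acid genes, was above the pool in all 5, with a mean of 0.11. Of the reference genes, Actb had a mean of 0.15, Ppia 0.17 and the brightest of the 3 Gapdh probes 0.00. The reference list's median was 0.36 in animal 1 and between 0.01 and 0.12 in the others.

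For 105 of the 120 probes the 95% interval of the mean lay within -0.5 to 0.5. Of the 10 CAR and PXR targets 9 did so, of the 34 P450 probes 29, and of the 18 cholesterol genes 10. A probe that is dim in both channels also has a narrow interval, because the offset added in the background correction pulls its ratio to 0. Only 71 probes were above background on most arrays, so a narrow interval does not by itself bound a change. The intervals also leave out the spread among saline animals and depend on the centring. Calibration spots shifted the ratios by a median of 0.31 and luciferase spots by 0.25.

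Adefovir dipivoxil was the nearest comparison, since its parent drug differs from tenofovir by the lack of a methyl group on the chain that joins adenine to the phosphonate, and dose and time were the same. The prodrug esters of the pair also differ. No gene was called different between the drugs: 0 of 120 probes (0%) were called in either direction, and at an unadjusted p under 0.05 there were 3, all higher with tenofovir (limma). Both groups were set against the same saline pool, which drops out of this difference. Over the named genes the smallest p belonged to Nr5a2, which was higher with tenofovir by 0.25 on the log2 scale (95% interval 0.06 to 0.43, unadjusted p = 0.0139). For Abcb11 the difference was 0.30 (0.02 to 0.57), and for Cyp1a2 it was 0.37 (-0.01 to 0.76). Cyp1a2 had a mean of -0.59 with adefovir and was called lower than the pool in that group (adjusted p = 0.0203, limma).

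Cyp26a1 lay at -1.07 with both drugs, with an interval of the difference of -0.35 to 0.36. With adefovir it was likewise called lower than the pool (adjusted p = 2.47e-05, limma). Since its treated channel was above background on only 2 of the 10 tenofovir arrays, the 2 means do not show that the falls were of equal size. Acss2 had a mean of -0.74 with tenofovir and of -0.38 with adefovir, a difference of -0.35 (-0.85 to 0.14) that the test did not call. The adefovir animals were at 0.05, -1.21, 0.12, -0.36 and -0.53 for this gene, so animals 1 and 3 stood at the pool, whereas each tenofovir animal was below it. Such a pattern ran through the cholesterol genes. In adefovir animals 1 and 3, 2 and 1 of the 18 genes were negative, and in animals 2, 4 and 5 there were 15, 16 and 16. In the tenofovir animals the count was 14 to 16. Fdps shows it: 0.36, -0.86, 0.29, -0.54 and -0.76 with adefovir (SD 0.586) beside the narrow range with tenofovir (SD 0.0891). The SD was smaller with tenofovir for 15 of the 18 genes, and for 62 of all 120. This difference in spread was not tested.

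**Figure D4:**
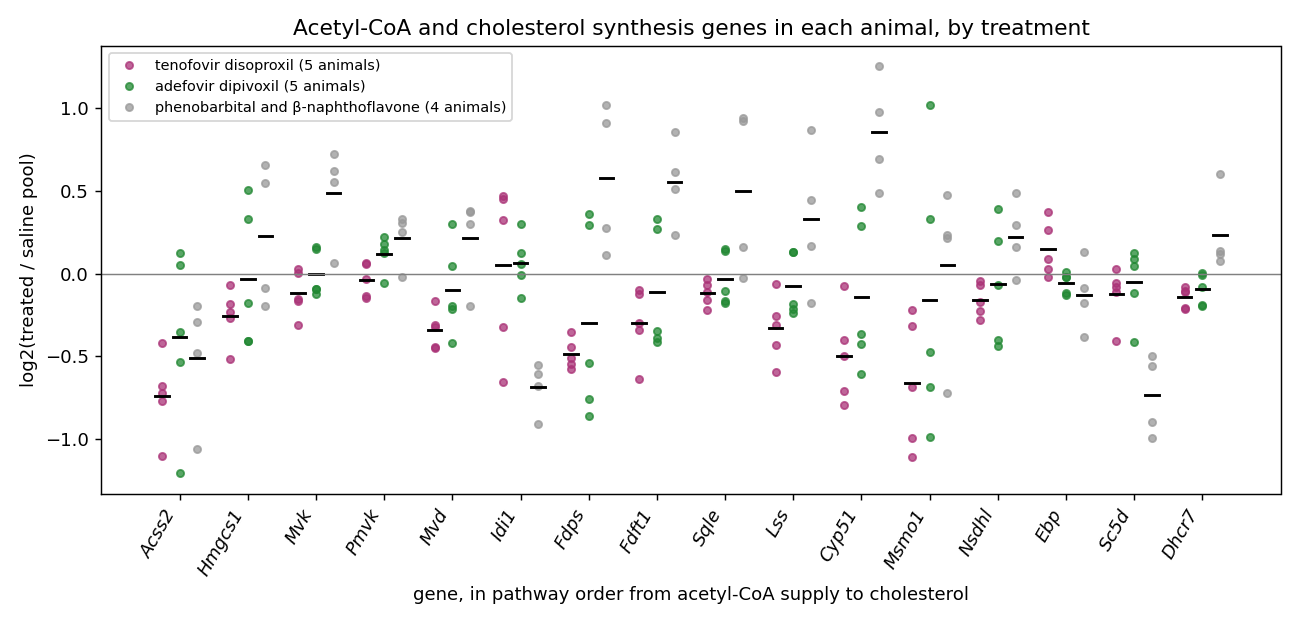
Log2 ratio of treated over saline pool in each animal (points) with the group mean (bar) for Acss2 and 15 of the cholesterol synthesis genes in pathway order, for tenofovir disoproxil, adefovir dipivoxil and the positive control. For Fdps the tenofovir points lie together between -0.58 and -0.36, while the adefovir points fall on both sides of 0.

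The positive control induces P450 genes through CAR and the aryl hydrocarbon receptor. Relative to phenobarbital with β-naphthoflavone, 22 probes (18.3%) were lower with tenofovir and 16 (13.3%) higher. The control arrays used here are those of the 4 single animals, which have 1 dye orientation. Their saline channel had only 9 to 29 probes above background, and their headers mark the Cy5 channel as bad. The series also holds arrays of pooled positive-control RNA, some of them dye-swapped, which entered no test. Centred on the median in place of loess, the split became 35 lower and 13 higher, and only 3 of those 13 were among the 16. Cyp1a2 had a mean of 2.31 in the control (saline channel above background on 3 of 4 arrays) and -0.22 with tenofovir, a difference of -2.53 (95% interval -2.94 to -2.12). Cyp2e1 went the other way, at -1.45 in the control and 0.01 with tenofovir, a difference of 1.46 (1.15 to 1.77), with both channels above background on all 4 arrays. Cyp2f2 differed by 1.04 and Scp2, a sterol carrier, by 0.73, also with both channels above background. The differences of Cyp2e1, Cyp2f2 and Scp2 from the control were not checked gene by gene with median centring. Cyp2b10 was at 1.23 to 1.84 in the 4 control animals and at -0.19 to 0.15 with tenofovir (adjusted p = 1.65e-07, limma). Its saline channel was below background on all 4 control arrays, so the size of this difference is poorly measured.

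Among the cholesterol genes, 10 of 18 were lower with tenofovir than in the control and 2 were higher, Idi1 and Sc5d. Over all probes the shares were 18.3% lower and 13.3% higher. Among the 10 are Dhcr7, Fdft1, Lss, Mvd, Mvk, Pmvk and Sqle, whose saline channel was above background on none of the control arrays. Their control ratios are therefore poorly measured. For Cyp51 the control animals were at 0.49 to 1.25, above the pool, and the tenofovir animals below it, without overlap. The saline channel for Cyp51 was above background on 1 control array. Fdps was at 0.11 to 1.02 in the control (saline above background on 1 array), again with no overlap. Idi1 was at -0.91 to -0.55 in the control and at -0.66 to 0.47 with tenofovir, and Sc5d had a mean of -0.74 in the control. Cyp26a1 had a mean of -0.40 in the control (adjusted p = 0.022 against the pool, limma), with its saline channel above background on none of the 4 arrays. Acss2 had a mean of -0.51 in the control (adjusted p = 0.0357 against the pool, limma), with its saline channel above background on 1 of 4 arrays. Its difference from tenofovir was -0.23 and not called, but -0.76 and called with median centring (adjusted p = 0.0362, limma). For Cyp17a1 the saline channel was above background on none of the control arrays, so no comparison is given. For Slc10a1 the tenofovir mean was higher by 0.53, a sign that turned to -0.14 with median centring, and for Cyp2a4 the difference of 0.03 turned to -0.91. Of the 10 CAR and PXR targets, 5 were lower with tenofovir than in the control and 1, Alas1, was higher. The 5 were Abcc3, Cyp2b10, Cyp2b13, Cyp3a13 and Cyp3a25. The saline channel was above background on none of the 4 control arrays for Abcc3 and Cyp2b10. It was so on 1 for Cyp2b13, Cyp3a25 and Alas1, and on 2 for Cyp3a13, so these control ratios are poorly measured.

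**Figure D5:**
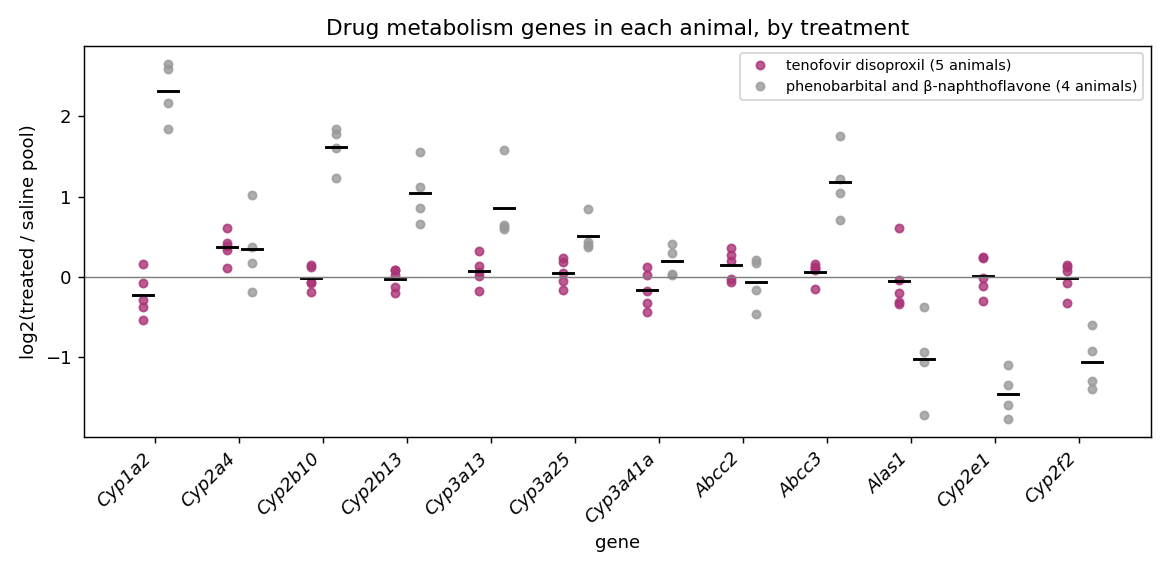
Log2 ratio of treated over saline pool in each animal (points) with the group mean (bar) for 12 drug metabolism genes, for tenofovir disoproxil and the positive control. For Cyp1a2 the control animals lie between 1.84 and 2.65 and the tenofovir animals between -0.53 and 0.17, and for Cyp2e1 the control lies below all tenofovir animals.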

How the data were processed

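Per the file headers, the authors deposited raw spot medians (intensity units) for both channels with the local background, neither subtracted nor normalized. They also deposited a series table of log2 ratios. Its normalization, its centring, the image software and any spot flags were not given in the sources used here.

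Intensities of 360 gene spots (3 for each probe, beside 31 control probes) were background-corrected with normexp (offset 50) and normalized by loess (span 0.3, gene spots only) with limma 3.58.1 in R 4.3.3. Spots were averaged, ratios were turned to treated over saline, and the 2 arrays of an animal were averaged. The positive control, with 1 dye orientation, had the dye effect measured on the antiviral pairs subtracted. One linear model over the 14 animals (residual df 11, prior df 3.36) with eBayes gave two-sided tests, adjusted by Benjamini-Hochberg over 120 probes at 0.05. The pool counts as 1 control sample, so p-values leave out the spread among saline animals. Above background means over 2 background SDs for most spots. No gene spot was saturated on these arrays, and the number of arrays limits the precision. No arrays were identical. Array position on a slide coincides with dye, and each slide holds 1 animal, so position and dye cannot be told apart.

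The platform annotation names 110 probes (108 by current symbol, 2 by synonym); the other 10 are counted in tests and lists and not named. Close paralogs such as Cyp2b10 and Cyp2b13 can cross-hybridise. Named genes are the called ones, up to 20 more with the smallest p, 1 sign in all animals and signal above background, up to 3 more from each list by size, and fixed anchors (55 in all). Dhcr7, Sqle, Pmvk, the sterol sensing genes and the retinoid receptors were added as list members after their values were seen. Members, lists and rule were chosen with earlier results of these data known. The scripts were tested on simulated data. Figures used Python 3.11.15 and matplotlib 3.10.9. The alternatives changed background correction, normalization, dim-probe filter, dye, block, weights, samples in the fit and source of the ratios.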

Additional observations from a re-analysis of the deposited data

Results flagged for a closer look

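Of 55 named genes tested for 1 animal far from the other 4 (Dixon's ratio above 0.71), 2 stood out, and chance alone flags about 1 in 20 groups. For Abcc3, animal 2 was at -0.1507 and the others at 0.08 to 0.1655. For Rxrb, animal 1 was at 0.238 and the others at -0.0161 to 0.0462, with its treated channel above background on 4 arrays. Neither gene was called, and the cause was not tested.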

How the results depend on the processing

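Cyp26a1 was called lower in all 16 alternatives that gave a value and in all 14 fits without 1 animal, whereas Acss2 was called in 15 of 17 and in 10 of 14. Acss2 missed the threshold with plain background subtraction (adjusted p = 0.0521), when tenofovir animal 1, 2, 3 or 4 was left out, and when only the Cy5 arrays were used. Against 2 lower and 0 higher, the counts were 1 and 1 with plain subtraction, 5 lower with median centring, 12 and 17 with Cy3 alone, 9 and 15 with Cy5 alone (both hold the dye effect), 10 and 2 with arrays blocked by animal at random, 6 and 3 with array weights, 8 and 1 with tenofovir fitted alone, 5 and 2 with the 10 antiviral animals, 1 higher with calibration spots and 5 higher with luciferase spots. Without 1 animal of any group the lower count ran from 1 to 4 and the higher from 0 to 1; the 4 came without adefovir animal 3. Against the positive control, 26 were higher without background correction and 35 lower with median centring, where Cyp2a4 turned to -0.9147 and Slc10a1 to -0.14; without 1 animal the higher count ran from 13 to 23. Elsewhere the cause was not tested. Against adefovir, 0 and 0 were called in the alternatives run for it: no background correction, median centring, the 10 antiviral animals, the replicate block, and each animal of both groups left out. The shared numbers do not pair the animals: correlations of their deviations were 0.06, 0.27, -0.12, 0.13 and -0.21. Of the tenofovir cells of the authors' deposited table, 48.4% are empty, 56 probes had 3 or more animals, and 2 were lower (Acss2 and Msmo1 among the named genes, Msmo1 at -0.75 with adjusted p = 0.0295). Its columns correlated with the scanner ratios across genes at r of 0.769 to 0.965, with medians of 0.25 to 0.78 in Cy3 and -1.54 to 0.60 in Cy5. Of the 120 probes, 32 had no channel above background on any tenofovir array, which limits what could be seen.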
